A study of Mus musculus with 30 samples.

Results

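The comparison described here is of DKO cells with IFNα against IRF1KO cells with IFNα, which shows what differs with the IRF2 label when IRF1 is already targeted and type I interferon is present. It rests on 4 of the 30 libraries of the series, 2 in each group, chosen by their labels alone. All come from DC3.2, a mouse dendritic cell line. DKO cells carry targeting of both interferon regulatory factors, IRF1 and IRF2, and were kept for 2 h with IFNα at 5000 U/mL. IRF1KO cells carry targeting of IRF1 only and had the same IFNα for the same time. For comparison, the same genotypes were also kept for 2 h with IFNγ at 2 ng/mL or in media alone, and IRF2KO and WT cells had the same treatments. The labels write WT as nosg and IRF1KO as IRF1sg, name no control for the targeting, and do not say whether a line is a clone or whether its replicates are separate cultures. The p-values therefore rest on the spread between replicate libraries, which may be technical. That spread is pooled over the 24 replicated libraries of the series, so every comparison uses the same estimate of it. The comparisons in media, with IFNγ and of IRF2KO with WT share no library with DKO against IRF1KO under IFNα. A test of the difference between any of them and DKO against IRF1KO under IFNα uses the same 4 libraries again. The media and IFNγ comparisons use the same DKO and IRF1KO labels. An effect of IRF2 targeting and another fixed difference between these lines cannot be told apart there.

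IRF1 and IRF2 are transcription factors that bind the same DNA element, built from repeats of GAAA. IRF1 is induced by interferons and activates its targets, while IRF2 is present without interferon and is known as an antagonist of IRF1 at many promoters and as an activator at some, such as that of Gsdmd. IFNα signals through a type I receptor to the complex ISGF3, which contains IRF9 and binds a longer element (ISRE) that contains the GAAA repeats. Genes under this element encode antiviral effectors, sensors of foreign RNA and parts of the class I antigen presentation machinery.

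The sets of genes that differed are set beside their promoters, because the genes described below share a promoter element to different degrees. The windows come from RefSeq (GRCm38.p6), from 250 bases before to 50 after each start site, and the element searched on both strands was the IRF core, written as GAAA, any 2 bases and GAAA. It was found in 14 of 34 genes that were higher in DKO and have a window (41.2%), in 5 of 42 that were lower (11.9%) and in 358 of all 9032 tested genes with a window (4.0%). Over all 27025 genes of the table the share was also 4.0%. Among the genes whose difference between DKO and IRF1KO was larger with IFNα than in media, it was found in 8 of 10 (80.0%), against 6 of 24 of the other higher genes (25%). The 8 include Ifit1, Ifit3, Gm14446 and I830012O16Rik, related genes of the same cluster, so they are not independent of each other. The 6 include Gbp2, Gbp3 and Gbp7, related genes that lie together on chromosome 3, so the same holds for them. The longer ISRE (GGAAA, any 2 bases and GAAACT) contains the core and so overlaps it. This ISRE was found in 4 of 34 higher genes (11.8%), in 0 of 42 lower genes and in 22 of 9032 tested genes (0.2%). The 4 are Gbp3, Ifit1, Ifit3 and I830012O16Rik, and all but Gbp3 are related genes of the same cluster. The GAS element TTCNNNGAA, known from genes that IFNγ induces, was found in 4 of 34 higher genes (11.8%), 8 of 42 lower genes (19%) and 758 of 9032 tested genes (8.4%). A match is a description of the letters and not a bound site.

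The 250 bases before the start sites of 7 genes are shown 5′ to 3′ on the strand of the gene, with matches to the IRF core, in either orientation, in capitals. Rsad2 (chr12:26456453-26456702, minus strand), Ifit1 (chr19:34640639-34640888, plus strand), Ifit3 (chr19:34583279-34583528, plus strand) and Irgm1 (chr11:48871421-48871670, minus strand) stand for the genes with a larger difference under IFNα. Gbp3 (chr3:142559794-142560043, plus strand) stands for those that were higher in DKO in every treatment. Cmpk2 (chr12:26468965-26469214, plus strand), which also has a larger difference under IFNα, and Psmb9 (chr17:34187331-34187580, minus strand), which was lower, are shown because these letters are not in their windows. Ifit2, another gene with a larger difference under IFNα, has no match either.
Rsad2: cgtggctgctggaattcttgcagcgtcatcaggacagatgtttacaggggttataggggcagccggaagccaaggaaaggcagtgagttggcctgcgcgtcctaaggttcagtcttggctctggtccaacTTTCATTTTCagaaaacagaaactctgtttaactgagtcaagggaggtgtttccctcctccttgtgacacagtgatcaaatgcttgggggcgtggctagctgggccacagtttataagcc
Ifit1: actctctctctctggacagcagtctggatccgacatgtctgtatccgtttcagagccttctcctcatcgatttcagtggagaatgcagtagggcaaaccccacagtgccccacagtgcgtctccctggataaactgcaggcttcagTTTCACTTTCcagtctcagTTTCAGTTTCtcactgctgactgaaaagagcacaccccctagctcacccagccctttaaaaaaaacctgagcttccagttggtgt
Ifit3: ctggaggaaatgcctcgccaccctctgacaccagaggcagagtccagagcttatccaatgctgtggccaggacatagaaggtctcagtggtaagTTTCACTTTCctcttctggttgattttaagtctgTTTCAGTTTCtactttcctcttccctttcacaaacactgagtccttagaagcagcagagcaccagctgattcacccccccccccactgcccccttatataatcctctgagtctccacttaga
Irgm1: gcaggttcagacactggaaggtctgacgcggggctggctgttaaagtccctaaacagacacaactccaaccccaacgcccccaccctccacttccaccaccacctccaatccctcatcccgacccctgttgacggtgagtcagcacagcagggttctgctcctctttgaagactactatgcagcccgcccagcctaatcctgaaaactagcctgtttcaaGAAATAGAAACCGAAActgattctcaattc
Gbp3: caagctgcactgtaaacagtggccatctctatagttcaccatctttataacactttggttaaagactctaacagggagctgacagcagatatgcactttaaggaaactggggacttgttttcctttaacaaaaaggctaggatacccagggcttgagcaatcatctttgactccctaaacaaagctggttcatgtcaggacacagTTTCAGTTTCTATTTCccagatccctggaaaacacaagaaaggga
Cmpk2: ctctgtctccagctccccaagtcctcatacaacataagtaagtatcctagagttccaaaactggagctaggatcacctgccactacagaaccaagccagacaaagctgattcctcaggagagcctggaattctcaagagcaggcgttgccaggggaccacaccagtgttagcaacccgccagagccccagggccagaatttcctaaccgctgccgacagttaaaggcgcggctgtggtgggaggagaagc
Psmb9: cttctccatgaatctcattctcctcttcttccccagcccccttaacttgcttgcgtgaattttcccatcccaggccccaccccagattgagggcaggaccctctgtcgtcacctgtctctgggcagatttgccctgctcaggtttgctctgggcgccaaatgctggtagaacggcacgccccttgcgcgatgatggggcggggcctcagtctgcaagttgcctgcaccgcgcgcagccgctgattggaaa
Ifit1, Ifit3 and Gbp3 each hold 2 matches, of which 1 lies in an ISRE. In Gbp3 the matches begin 45 and 39 bases before the start and overlap, and in Irgm1 they begin 30 and 24 bases before it and overlap too. Rsad2 has a single match that begins 120 bases before the start.

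**Figure D1:**
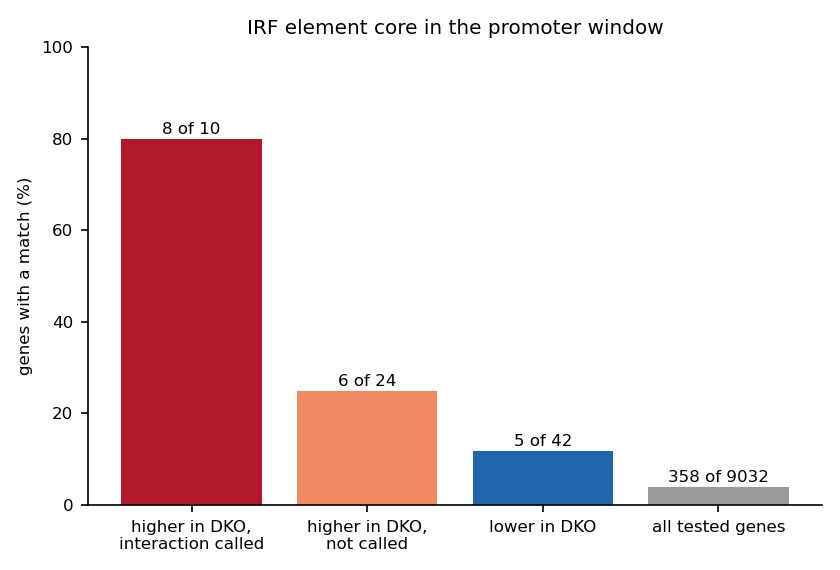
Share of genes with the IRF core in the promoter window (y axis, percent of genes with a window) in 4 sets of genes: higher in DKO with the difference larger under IFNα than in media (interaction called), other genes higher in DKO, genes lower in DKO, and all tested genes. The bars stand at 80.0%, 25%, 11.9% and 4.0%, with the counts above them, and no test was made.

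Levels are in TPM, which scale the transcripts of every library to the same sum and hold no count of reads, so sequencing depth is unknown. Differences are in log2(TPM + 1), DKO minus IRF1KO, and each is followed by its SE for 2 libraries a group. The spread in this SE is estimated from all 24 replicated libraries with a trended prior variance, and not from the compared libraries alone. Calls required an adjusted p below 0.05 (limma, Benjamini-Hochberg over 11842 genes). On this scale folds of genes near or under 1 TPM are understated. The DKO libraries with IFNα had 10955 and 10954 genes at 1 TPM or more, and the IRF1KO libraries 11019 and 10993. Replicates correlated across genes at r = 0.984 in DKO and 0.988 in IRF1KO. The entry AK155692 took 1.77% and 6.84% of the DKO libraries, against 4.47% and 6.18% of the IRF1KO libraries, so DKO replicate 1 had the lowest share of all 24 replicated libraries. Of 7 dendritic cell markers 4 reached 1 TPM in these libraries, among them Itgax, Batf3 and Irf8, while Flt3 was at 0 and Xcr1 and Clec9a stayed under 0.2 TPM. Of the macrophage and monocyte markers all 6 in the table reached 1 TPM, with Lyz2 at 1285 and 1119 TPM in DKO against 1704 and 1631 TPM in IRF1KO. The highest value was 0.17 TPM among 3 T cell markers, 0.33 TPM among 3 B cell markers and 0.26 TPM among 4 fibroblast markers.

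The mRNAs of the targeted factors were present in all 4 libraries and were not called between the groups. Irf2 had 24.9 and 28.0 TPM in DKO with IFNα, against 33.7 and 29.2 TPM in IRF1KO, a difference of -0.24 ± 0.14 that was not called (adjusted p = 0.79, limma). Irf1 had 230 and 251 TPM in DKO, against 324 and 281 TPM in IRF1KO (-0.33 ± 0.17, adjusted p = 0.74, limma). Both DKO values lay below both IRF1KO values for each gene, which 2 libraries a side can also give for an unchanged gene. The share of all tested genes separated in this way was not counted. A targeted gene can keep its mRNA, so these levels do not check the lines.

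With IFNα, 7 of 10 guanylate-binding protein genes were higher in DKO than in IRF1KO. Of 42 antiviral genes 7 were higher and 5 lower. Lower too were 8 of 23 genes of class I antigen presentation, Gsdmd, and the RNA sensor genes Ifih1 and Tlr3. Of 11842 genes, 44 were higher in DKO (0.372% of those tested) and 56 lower (0.473%), 100 in all (0.844%). With the replicate number as a block, 113 were higher (0.954%) and 97 lower (0.819%), 210 in all (1.77%), and all 100 were among them. At an unadjusted p under 0.05 there were 860 genes of either sign (7.26% of those tested, against 7.03% in media, 8.68% with IFNγ and 9.25% for IRF2KO against WT with IFNα), the share beside which the unadjusted counts of the lists stand. On the log2 scale 31 of the 44 and 37 of the 56 differed by 2-fold or more. The total fell to 60 without DKO replicate 1 and to 52 without IRF1KO replicate 1, and a fit of these 4 libraries alone, which has 2 replicates a side to estimate the spread, called 18. The median difference of all genes was 0.02, and scaling by TMM or quantiles moved it by less than 0.1. Of the 19 gene lists considered, 18 of the 44 higher genes and 18 of the 56 lower genes were members of some list. The lists were chosen with earlier results of these data known. The share of all tested genes in any list was not counted, so these counts cannot be weighed.

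The same comparison was made without IFNα. In media 79 genes were called (0.667% of genes tested, and 201 or 1.7% with the block) and with IFNγ 97 (0.819%, and 270 or 2.28%). Of the 44 higher genes, 16 were also higher in DKO than in IRF1KO in media (36.4% of the 44 and 64.0% of the 25 called higher in media, which are 0.211% of genes tested), and 18 with IFNγ (40.9%, and 56.2% of the 32 called there, 0.27% of genes tested). Of the 56 lower genes, 41 were also lower in media (73.2%, and 75.9% of 54, which are 0.456% of genes tested), and 40 with IFNγ (71.4%, and 61.5% of 65, 0.549% of genes tested). The median difference of the 44 was 1.44 with IFNα, 0.56 in media and 0.56 with IFNγ, and that of the 56 was -1.33, -1.11 and -1.26. The genes were chosen by their calls with IFNα, so these medians describe them and test nothing, and the difference between treatments was tested gene by gene. For 12 genes the DKO against IRF1KO difference was larger with IFNα than in media and for 0 it was smaller (limma, 0.101% of genes tested, also 12 with the block, and 207 genes of either sign at p below 0.05 before adjustment). All 12 were among the 44 higher genes.

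**Figure D2:**
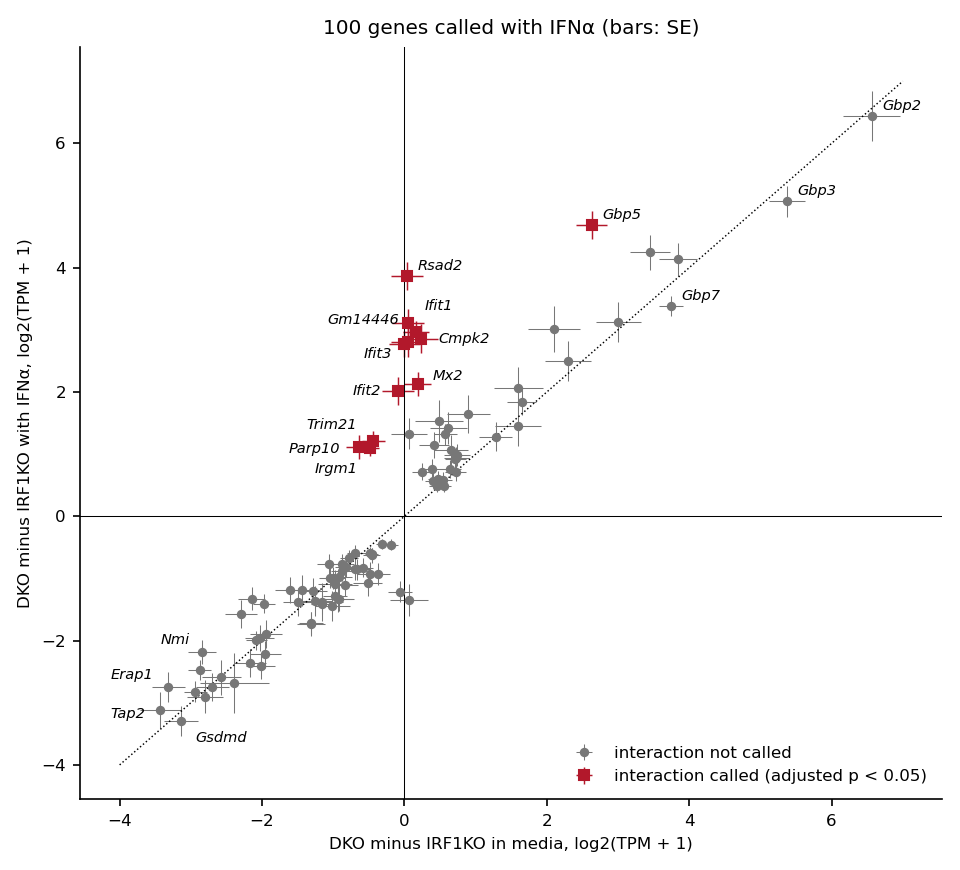
Difference of DKO minus IRF1KO in log2(TPM + 1) with IFNα (y axis) against the same difference in media (x axis) for the 100 genes called with IFNα, with SE bars and n = 2 libraries per group. The dotted line marks equal differences. Red squares are the 12 genes whose difference was larger with IFNα, of which 11 lie near or left of 0 on the x axis and Gbp5 lies at 2.63.

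The 12 genes are Rsad2, Ifit1, Ifit2, Ifit3, Gm14446, I830012O16Rik, Cmpk2, Mx2, Gbp5, Irgm1, Trim21 and Parp10. Rsad2, which encodes viperin, an enzyme that blocks viral replication, stands on chromosome 12 (26442746 to 26456452, GRCm38, minus strand). It had 23.3 and 22 TPM in DKO with IFNα, against 0.44 and 0.83 TPM in IRF1KO, a difference of 3.87 ± 0.22 (adjusted p = 3.6e-08, limma). In media it was at 0 and 0.1 TPM in DKO and at 0.05 and 0 TPM in IRF1KO, and with IFNγ at 0.46 and 0.08 TPM in DKO and 0.05 and 0 TPM in IRF1KO. So Rsad2 exceeded 1 TPM only in the DKO libraries with IFNα among these 12 libraries. The difference was larger with IFNα than in media by 3.83 ± 0.31 and than with IFNγ by 3.57 ± 0.31. Its neighbour Cmpk2 (26469204 to 26479837, plus strand), a nucleotide kinase gene induced with it by interferon, had 27.1 and 33.8 TPM in DKO, against 2.88 and 3.8 TPM in IRF1KO (2.86 ± 0.24).

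The Ifit genes form a cluster on chromosome 19, and 5 of the 12 lie there between 34550694 and 34650009. Their products bind viral RNA and restrain its translation. Ifit1 had 82.3 and 80.1 TPM in DKO with IFNα, against 7.66 and 9.44 TPM in IRF1KO, 9.49-fold higher by the means (3.11 ± 0.23). Ifit3 had 56.2 and 51.4 TPM in DKO, against 6.30 and 7.37 TPM in IRF1KO (2.81 ± 0.24). Each DKO value was far above each IRF1KO value in both genes. Ifit2 had 54.7 and 75.4 TPM in DKO, against 13.2 and 17.4 TPM in IRF1KO (2.01 ± 0.23). Gm14446, listed by RefSeq as Ifit1bl1, differed by 2.96 ± 0.19, and I830012O16Rik, listed as Ifit3b, by 2.77 ± 0.22. These genes resemble each other in sequence, so the sharing of reads among them is uncertain. In media Ifit1, Ifit3, Gm14446 and I830012O16Rik were under 1 TPM in every DKO and IRF1KO library, whereas Ifit2 had 3.75 and 3.90 TPM in DKO and 3.81 and 4.49 TPM in IRF1KO.

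The remaining members act in other ways. Mx2, a dynamin-like antiviral GTPase gene, had 19.7 and 22 TPM in DKO, against 3.05 and 5.13 TPM in IRF1KO (2.13 ± 0.19). Gbp5, which encodes a guanylate-binding protein that promotes inflammasome assembly, had 30.1 and 26.5 TPM in DKO, against 0.03 and 0.25 TPM in IRF1KO (4.69 ± 0.22). It was the only one of the 12 that was also called in media, where the difference was 2.63 ± 0.22. Irgm1, an immunity-related GTPase gene that controls vacuole membranes and autophagy, had 242 and 265 TPM in DKO with IFNα, against 114 and 121 TPM in IRF1KO (1.10 ± 0.13). In media Irgm1 stood the other way, at 8.93 and 7.80 TPM in DKO and 13 and 11.1 TPM in IRF1KO, a difference of -0.48 ± 0.13 that was not called. Trim21, an intracellular antibody receptor gene (1.20 ± 0.16 with IFNα and -0.44 ± 0.16 in media), and Parp10, an ADP-ribosyltransferase gene (1.11 ± 0.19 and -0.64 ± 0.19), had the same pattern. Parp10 had 5.17 and 5.84 TPM in DKO and 9.74 and 8.54 TPM in IRF1KO in media, and Trim21 was under 1 TPM in all 4 of those libraries. None of the 3 was called in media, and their sign there was opposite to that with IFNα.

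How firmly the 12 are set apart from media depends on the scale. In 8 of the 12 every DKO and IRF1KO library in media was under 1 TPM, so a fold there lies at the floor of the scale. With a pseudocount of 0.1 in place of 1, 5 of the 12 were called, and these were Rsad2, Ifit2, Irgm1, Parp10 and Trim21. All 12 rose with IFNα in DKO and 9 rose with IFNα in IRF1KO, where Rsad2 (0.66 ± 0.22), Gbp5 (0.06 ± 0.22) and Parp10 (0.76 ± 0.19) were not called. These responses use the same IFNα libraries as the comparison itself. In DKO 115 genes rose with IFNα (0.971% of genes tested) and 5 fell (0.0422%), 1.01% in all, and in IRF1KO 96 rose (0.811%) and 1 fell (0.00844%), 0.819% in all.

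Set against IFNγ in the same way, the DKO against IRF1KO difference was larger with IFNα for 9 genes and smaller for 0 (limma, 0.076% of genes tested, 11 or 0.0929% with the block, and 265 genes of either sign at p below 0.05 before adjustment). Of the 9, 8 were also among the 12, namely Rsad2, Ifit1, Ifit2, Ifit3, Gm14446, I830012O16Rik, Cmpk2 and Mx2, with values between 1.75 and 3.57. The other was the histone gene Hist1h4f, at most 2.91 TPM in any of these libraries and not called with IFNα alone. With a pseudocount of 0.1 the count was 0, and leaving out IRF1KO replicate 1 with IFNα, DKO replicate 1 with IFNγ or IRF1KO replicate 2 with IFNγ left 5. Gbp5 and Irgm1 were not called here, at 1.40 ± 0.32 and 0.76 ± 0.18.

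**Figure D3:**
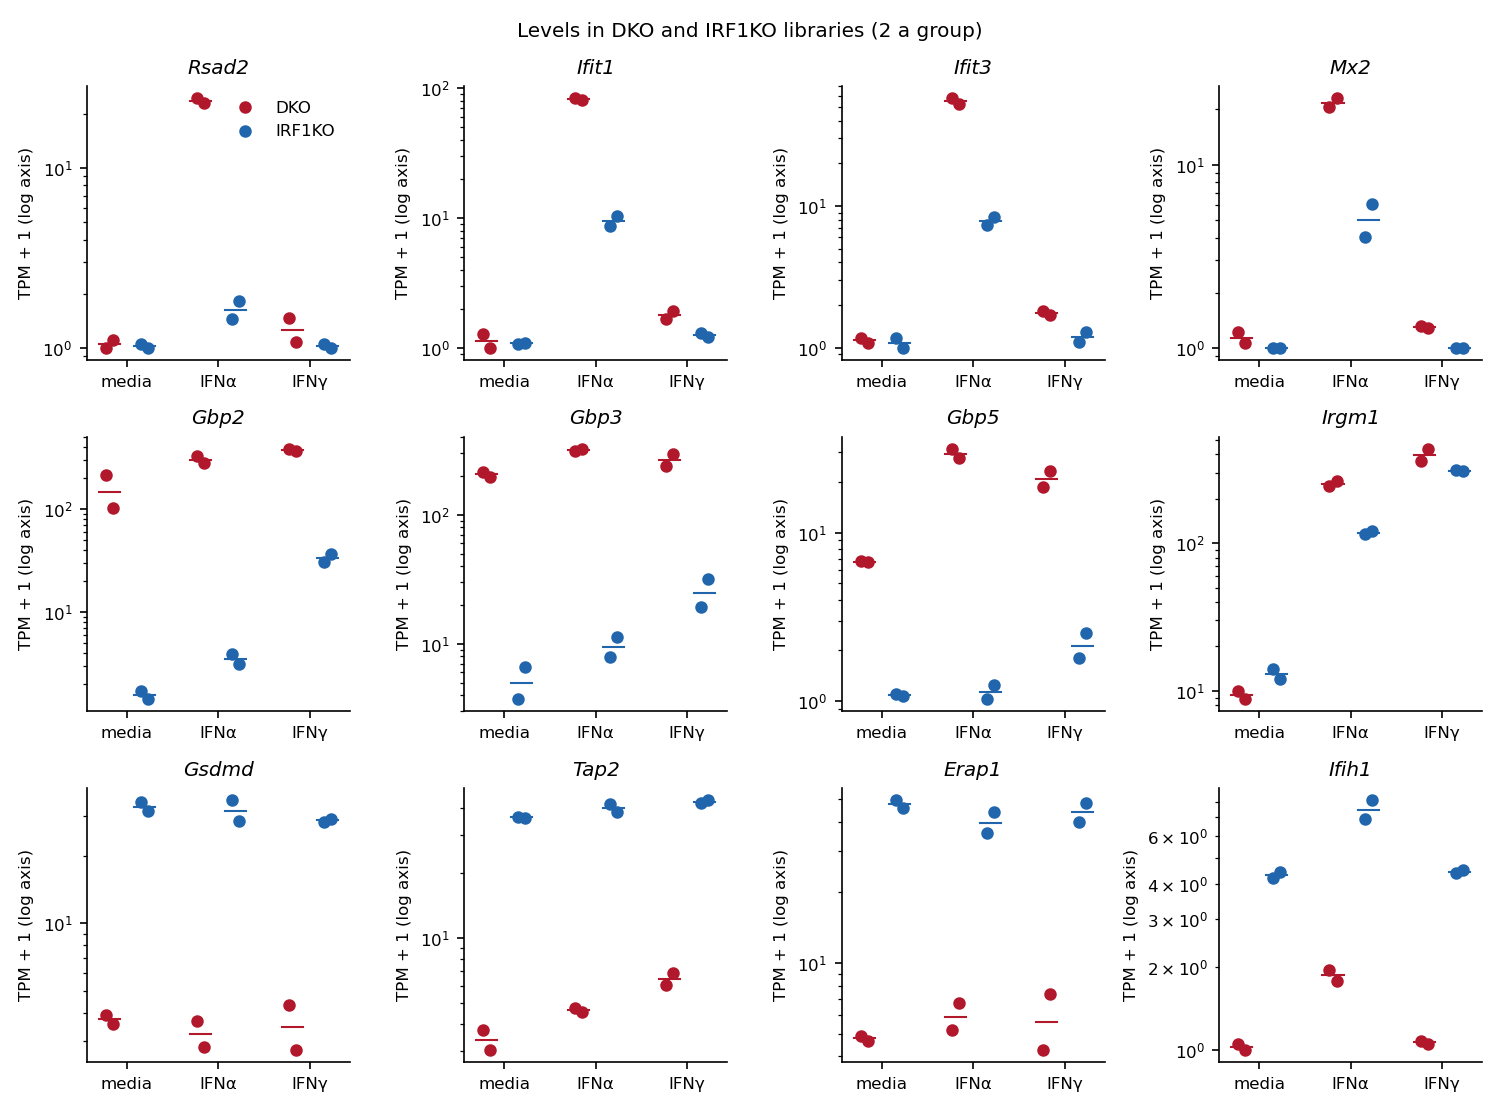
Levels of 12 genes (y axis, TPM + 1 on a log axis whose range differs by panel) in DKO and IRF1KO libraries in media, with IFNα and with IFNγ. Each point is a library, 2 a group, and the bar is their mean on the log scale. For Rsad2, Ifit1, Ifit3 and Mx2 the groups stand apart with IFNα and lie under 1 TPM in media, the Gbp genes stand apart in every treatment, the Irgm1 points change order between media and IFNα, and in the bottom row all DKO points lie below all IRF1KO points.

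The guanylate-binding protein genes, whose products coat vacuoles and cytosolic bacteria, were the family with the largest differences. Gbp2 (chromosome 3, 142620602 to 142638008) had 330 and 279 TPM in DKO with IFNα, against 2.93 and 2.12 TPM in IRF1KO, 121-fold higher by the means (6.44 ± 0.41, adjusted p = 8.8e-08, limma). Gbp3 had 314 and 320 TPM in DKO, against 6.97 and 10.3 TPM in IRF1KO, 36.7-fold higher (5.06 ± 0.25). Gbp7 had 203 and 210 TPM in DKO, against 16.5 and 21.6 TPM in IRF1KO, 10.8-fold higher (3.38 ± 0.16). DKO and IRF1KO libraries lay far apart in each. Gbp4 (4.25 ± 0.28), Gbp9 (3.13 ± 0.32) and Gbp8 (2.49 ± 0.32), which overlap on chromosome 5 in the annotation, and Gbp5 were higher as well. In total 7 of 10 tested members were higher and 0 lower (8 and 0 at an unadjusted p under 0.05), with a median of 3.26, against 0.02 for all genes. The summed level of the family was 932 and 928 TPM in DKO, against 30.9 and 40.0 TPM in IRF1KO. Gbp6 (0.74 ± 0.21, adjusted p = 0.20, limma) and Gbp11 (0.29 ± 0.20) were not called and stayed under 3 TPM in all 4 libraries. Reads shared among near-identical members make the value of any single Gbp gene uncertain.

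The same 7 Gbp genes were also higher in DKO than in IRF1KO in media and with IFNγ. Gbp2 differed by 6.56 ± 0.41 in media and by 3.48 ± 0.41 with IFNγ, where IRF1KO cells had 29.4 and 35.8 TPM against 2.93 and 2.12 TPM with IFNα. The response of Gbp2 to IFNα was not called in either genotype, at 1.04 ± 0.41 in DKO (adjusted p = 0.66, limma) and 1.16 ± 0.41 in IRF1KO (adjusted p = 0.55, limma). The Gbp2 level of DKO cells in media, 214 and 101 TPM, was above that of IRF1KO cells with IFNγ in both libraries.

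Antiviral genes of the ISGF3 type moved both ways. Of 42 tested members 7 were higher in DKO with IFNα, 5 were lower and 30 were not called. With the block 8 were higher and 8 lower, and 11 were higher and 14 lower at an unadjusted p under 0.05. The median was -0.13, and 0.09 without DKO replicate 1. The members called higher without the block were Rsad2, Cmpk2, Ifit1, Ifit2, Ifit3, Mx2 and Parp10, all described above. Those called lower without it were Ifi27, Parp14, Nmi, Oasl2 and Dhx58. Parp14, an ADP-ribosyltransferase gene, had 2.34 and 4.59 TPM in DKO, against 21.3 and 22.6 TPM in IRF1KO (-2.41 ± 0.20). Nmi, which binds STAT proteins, had 1.28 and 1.76 TPM in DKO, against 11.3 and 9.64 TPM in IRF1KO (-2.19 ± 0.20). Ifi27, a mitochondrial and nuclear envelope protein gene, had 6.28 and 5.05 TPM in DKO, against 41.9 and 36.3 TPM in IRF1KO (-2.59 ± 0.28). Parp14 rose with IFNα in both genotypes, by 1.92 ± 0.20 in DKO and 2.31 ± 0.20 in IRF1KO. In media 0 members of this list were higher and 7 lower (1 and 15 at an unadjusted p under 0.05), and with IFNγ 0 and 7 (4 and 16).

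Most genes of the response were not called between the 2 genotypes, which does not show that they were alike. Of 86 genes that rose with IFNα in both DKO and IRF1KO, 9 were higher in DKO, 6 lower and 71 not called. Of all tested genes 0.372% were higher and 0.473% lower. The 86 were chosen by values in the same IFNα libraries that are compared here, so their counts test nothing. Isg15, a ubiquitin-like modifier, had 50.1 and 44.2 TPM in DKO, against 31.9 and 29.3 TPM in IRF1KO (0.61 ± 0.38, 95% interval -0.19 to 1.41, adjusted p = 0.81, limma). Irf7, the factor that amplifies type I interferon, had 27.2 and 38.9 TPM in DKO, against 31.7 and 36.5 TPM in IRF1KO (-0.06 ± 0.21, 95% interval -0.52 to 0.39). Among 21 tested genes of interferon receptors and JAK-STAT signalling 0 were called (0 at an unadjusted p under 0.05), with Stat2 at -0.29 ± 0.26. Of the IRF family 0 of 11 were called (1 lower at an unadjusted p under 0.05), with Irf9 at 0.13 ± 0.14 (95% interval -0.18 to 0.43) and Irf8 at -0.32 ± 0.14.

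Part of the class I antigen presentation list was lower in DKO. Of 23 tested members 8 were lower, 0 higher and 15 not called with IFNα (10 and 1 at an unadjusted p under 0.05), with a median of -0.44, and between 3 and 5 were lower when any library of the comparison was left out. Tap2, a subunit of the transporter that carries peptides into the endoplasmic reticulum, had 3.74 and 3.52 TPM in DKO, against 40.8 and 37.5 TPM in IRF1KO, 10.8-fold higher in IRF1KO (-3.11 ± 0.29, adjusted p = 6.3e-06, limma). Erap1, which trims peptides there, had 4.16 and 5.77 TPM in DKO, against 34.8 and 43.0 TPM in IRF1KO (-2.75 ± 0.23). Psmb9, an immunoproteasome subunit, had 8.60 and 13.2 TPM in DKO, against 30.2 and 38.0 TPM in IRF1KO (-1.58 ± 0.22). No DKO library reached an IRF1KO library in these 3 genes, which holds for every gene called lower. The proteasome activator genes Psme1 (-1.19 ± 0.20) and Psme2 (-1.19 ± 0.25) were lower too. The heavy chain genes H2-K1 and H2-D1 were lower by less: H2-K1 had 139 and 135 TPM in DKO, against 208 and 207 TPM in IRF1KO (-0.59 ± 0.09), and H2-D1 had 697 and 669 TPM, against 907 and 946 TPM (-0.44 ± 0.08).

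The class I genes on chromosome 17 did not move as a block. Psmb9 (34181987 to 34187764), Tap1 (34187553 to 34197225), Psmb8 (34197721 to 34201454) and Tap2 (34203527 to 34216321) follow each other there. Tap1, the other transporter subunit, had 29.3 and 40.2 TPM in DKO, against 57.0 and 49.6 TPM in IRF1KO (-0.62 ± 0.17, adjusted p = 0.18, limma), and was not called. Psmb8 had 127 and 113 TPM in DKO, against 174 and 186 TPM in IRF1KO (-0.59 ± 0.12, adjusted p = 0.027, limma). The Tap1 and Psmb9 loci overlap in the annotation, so reads at that edge cannot be assigned with certainty. The calls of Psmb8 and H2-D1 were lost when any library of the comparison was left out, that of Psme1 without DKO replicate 2 or IRF1KO replicate 1, and that of H2-K1 without IRF1KO replicate 1. B2m, the class I light chain (0.06 ± 0.12, 95% interval -0.19 to 0.32), Tapbp (0.35 ± 0.29), Psmb10 (-0.59 ± 0.23) and the class I transactivator Nlrc5 (-0.32 ± 0.27) were not called. H2-T22, a nonclassical class I gene of the list, stood the other way at 17.8 and 29.2 TPM in DKO, against 4.4 and 5 TPM in IRF1KO (2.07 ± 0.55), and was not called (adjusted p = 0.14, limma). H2-T9, a related gene outside the list, was higher, at 44.8 and 29.3 TPM in DKO against 12.9 and 10.9 TPM in IRF1KO (1.53 ± 0.34, adjusted p = 0.042, limma). The sequences of these genes are close, so their share of reads is uncertain. In media 7 of the 23 were lower and 0 higher (10 and 2 at an unadjusted p under 0.05), and with IFNγ 6 and 0 (10 and 1). The constitutive proteasome had 0 of 14 subunits called (0 at an unadjusted p under 0.05), with a median of 0.02, and class II presentation 0 of 12 (1 lower at an unadjusted p under 0.05).

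**Figure D4:**
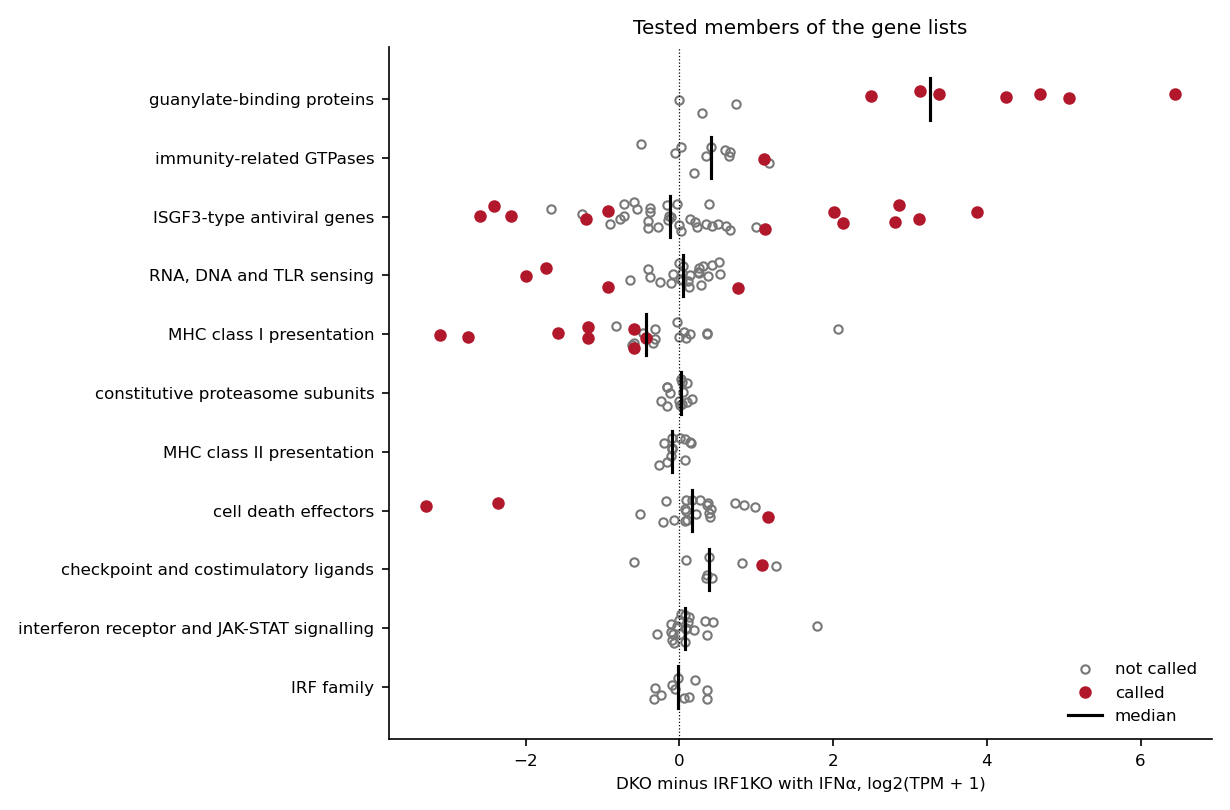
DKO minus IRF1KO in log2(TPM + 1) with IFNα (x axis) for every tested member of 11 gene lists (y axis, spread within a list for visibility), n = 2 libraries per group. Filled red points are called genes, open points are not, and the bar is the list median, at 3.26 for the guanylate-binding proteins and -0.44 for MHC class I presentation.

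Genes of sensing and cell death were fewer but some of them moved far. Gsdmd, which encodes gasdermin D, the pore-forming effector of pyroptosis, had 2.70 and 1.83 TPM in DKO, against 34.2 and 27.6 TPM in IRF1KO, 13.6-fold higher in IRF1KO (-3.29 ± 0.24, adjusted p = 5.5e-07, limma). The difference was -3.14 ± 0.24 in media and -3.06 ± 0.24 with IFNγ. Bcl2, an inhibitor of apoptosis, was higher, at 8.32 and 5.50 TPM in DKO against 2.47 and 2.55 TPM in IRF1KO (1.15 ± 0.21). Of 23 cell death effectors 1 was higher and 2 lower, and 3 were higher and 3 lower with the block. At an unadjusted p under 0.05, 5 were higher and 3 lower. The call of Bcl2 was lost without DKO replicate 1 or without either IRF1KO replicate. Casp1, upstream of Gsdmd, had 98.9 and 70.1 TPM in DKO, against 48.3 and 44.3 TPM in IRF1KO, and was called only with the block (adjusted p = 0.17 without it and 0.0079 with it, limma).

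Of 27 sensing genes 3 were lower and 1 higher (5 and 4 at an unadjusted p under 0.05). Ifih1, which encodes the RNA sensor MDA5, had 0.96 and 0.78 TPM in DKO, against 5.90 and 7.07 TPM in IRF1KO (-2.0 ± 0.15). Tlr3, the endosomal receptor for double-stranded RNA, had 0.71 and 1.44 TPM in DKO, against 5.47 and 6.18 TPM in IRF1KO (-1.74 ± 0.19). Dhx58, a helicase of the same family as MDA5, had 5.81 and 5.89 TPM in DKO, against 12.4 and 11.7 TPM in IRF1KO (-0.93 ± 0.19). In these 3 genes both DKO values lay below both IRF1KO values, as in every gene called lower. The share of all tested genes separated in this way was not counted. Ddx58, the gene of RIG-I, was lower in media (-1.38 ± 0.19) and with IFNγ (-1.37 ± 0.19), and had 9 and 11.2 TPM in DKO with IFNα, against 15.8 and 16.9 TPM in IRF1KO (-0.65 ± 0.19, adjusted p = 0.25, limma). Nod2, a sensor of bacterial peptidoglycan, was the higher member (0.76 ± 0.17). The calls of Nod2 and Dhx58 were lost when any library of the comparison was left out.

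Among ligands and chemokines the differences were at the edge of the test. Cd274, the gene of PD-L1, a brake on T cells, had 83.8 and 87.9 TPM in DKO, against 45.0 and 36.1 TPM in IRF1KO (1.07 ± 0.24, adjusted p = 0.047, limma), the only called of 9 checkpoint and costimulatory ligands (3 with the block). Its call was lost when any library was left out and under TMM or quantile scaling. At an unadjusted p under 0.05, 5 of the 9 ligands were higher and 0 lower. Cxcl10, a chemokine that attracts T cells, had 212 and 114 TPM in DKO, against 36.7 and 22.5 TPM in IRF1KO (2.40 ± 0.58, adjusted p = 0.080, limma), and was called with the block (adjusted p = 0.028). Of 21 cytokines and chemokines 0 were called without the block (1 higher and 1 lower at an unadjusted p under 0.05) and 1 in each direction with it, and of 17 NF-kB feedback genes 0 (1 and 1). Itgax, the CD11c gene, was the only called of 11 dendritic cell markers, at 31.6 and 37.6 TPM in DKO against 53.7 and 56.7 TPM in IRF1KO (-0.66 ± 0.13), and its call was lost without DKO replicate 1 or either IRF1KO replicate. At an unadjusted p under 0.05, 1 of the 11 dendritic cell markers was higher and 3 lower. Of 14 macrophage and monocyte markers 0 were called (1 higher and 1 lower at an unadjusted p under 0.05). Lyz2 of this list was lower with the block. Of 11 immunity-related GTPases only Irgm1 was called (5 higher at an unadjusted p under 0.05), with Igtp at 0.35 ± 0.20. Of 27 cell cycle genes 0 were called (2 and 2 at an unadjusted p under 0.05) and of 21 stress and immediate early genes 0 (1 and 3), and with the block 2 cell cycle genes were higher and 1 lower and 1 stress gene was lower, while no lymphocyte marker passed the filter on low values. Of 12 fibroblast and stromal genes only Fn1, the fibronectin gene, passed it, at 10.15 and 11.76 TPM in DKO and 17.63 and 19.98 TPM in IRF1KO (-0.73 ± 0.66, adjusted p = 0.90, limma).

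Some of the genes that fell furthest in DKO are in none of the lists used. Ctso, a cathepsin gene, had 0.04 and 0.07 TPM in DKO, against 6.69 and 6.24 TPM in IRF1KO (-2.82 ± 0.17). Acadl, an enzyme of fatty acid oxidation, had 1.94 and 1.66 TPM in DKO, against 24.4 and 16.2 TPM in IRF1KO (-2.90 ± 0.26). Arsb, a lysosomal sulfatase gene (-2.75 ± 0.23), Rcn1, a calcium-binding protein of the endoplasmic reticulum (-2.48 ± 0.16), and Agt, the angiotensinogen gene (-2.69 ± 0.48), were lower as well. Each of the 5 was also lower in DKO than in IRF1KO in media and with IFNγ. Agt had 13.1 TPM in IRF1KO replicate 1 and 6.58 TPM in replicate 2, and its call was lost without DKO replicate 1, DKO replicate 2 or IRF1KO replicate 1, and at a pseudocount of 5. Of the 56 lower genes 18 had a mean under 1 TPM in DKO, so their folds are understated. Tmem140, a membrane protein gene, was higher, at 14.3 and 24.4 TPM in DKO against 1 and 1.98 TPM in IRF1KO (3.01 ± 0.37). The entry named mmu-mir-155* had 41.3 and 42.1 TPM in DKO, against 1.41 and 1.45 TPM in IRF1KO (4.13 ± 0.27), and whether it measures the mature miRNA cannot be told from the table.

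The last comparison asks whether the IRF2 label has the same effect when IRF1 is intact, with IRF2KO against WT under IFNα in 4 other libraries. There 115 genes were called (0.971% of genes tested), 74 higher (0.625%) and 41 lower (0.346%), and 254 with the block (2.14%). Of the 44 genes higher in DKO than in IRF1KO, 30 were also higher in IRF2KO than in WT (68.2% of the 44 and 40.5% of the 74). Of the 56 lower genes 30 were also lower (53.6%, and 73.2% of the 41), and 1, Psmb8, was called the other way. Gsdmd fell in IRF2KO too, to 4.89 and 3.31 TPM, against 34.8 and 32.3 TPM in WT (-2.78 ± 0.24). Rsad2 had 140 and 95.6 TPM in IRF2KO, against 2.35 and 2.12 TPM in WT (5.17 ± 0.22), and Ifit1 had 269 and 150 TPM in IRF2KO, against 23.8 and 25.5 TPM in WT (2.98 ± 0.23). All 12 genes set apart by IFNα were higher in IRF2KO than in WT with IFNα. Both genes had lower values in DKO than in IRF2KO and lower values in IRF1KO than in WT. The difference with the IRF2 label was smaller in the IRF1KO background by -1.31 ± 0.31 for Rsad2 and stood at 0.13 ± 0.32 between backgrounds for Ifit1, and neither was called.

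The direct test between the IRF1KO and WT backgrounds called 2 genes, both more negative in the IRF1KO background (0.0169% of genes tested, 1 or 0.00844% with the block, and 223 genes of either sign at p below 0.05 before adjustment). Psmb8 was lower in DKO than in IRF1KO, but had 532 and 404 TPM in IRF2KO, against 238 and 231 TPM in WT (0.98 ± 0.12), and the 2 differences differed by -1.57 ± 0.17 (adjusted p = 0.0015, limma). Erap1 differed by -0.58 ± 0.23 between IRF2KO, at 42.8 and 30.7 TPM, and WT, at 48.7 and 61.2 TPM, and the 2 differences differed by -2.17 ± 0.33 (adjusted p = 0.048, limma, and 0.051 with the block). The count was 1 when DKO replicate 1, either IRF1KO replicate, IRF2KO replicate 1 or either WT replicate was left out, 3 without DKO replicate 2, 7 at a pseudocount of 5, and 0 in a fit of these 4 groups alone. Tap2 had 30.9 and 17.8 TPM in IRF2KO, against 56.8 and 53.3 TPM in WT (-1.19 ± 0.29), but its test between backgrounds was not called (-1.92 ± 0.41, adjusted p = 0.49, limma). Of the class I list 2 of 23 were higher and 0 lower in IRF2KO than in WT with IFNα (5 and 6 at an unadjusted p under 0.05), against 0 higher and 8 lower in DKO than in IRF1KO. Whether the list differs between the backgrounds was not tested.

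**Figure D5:**
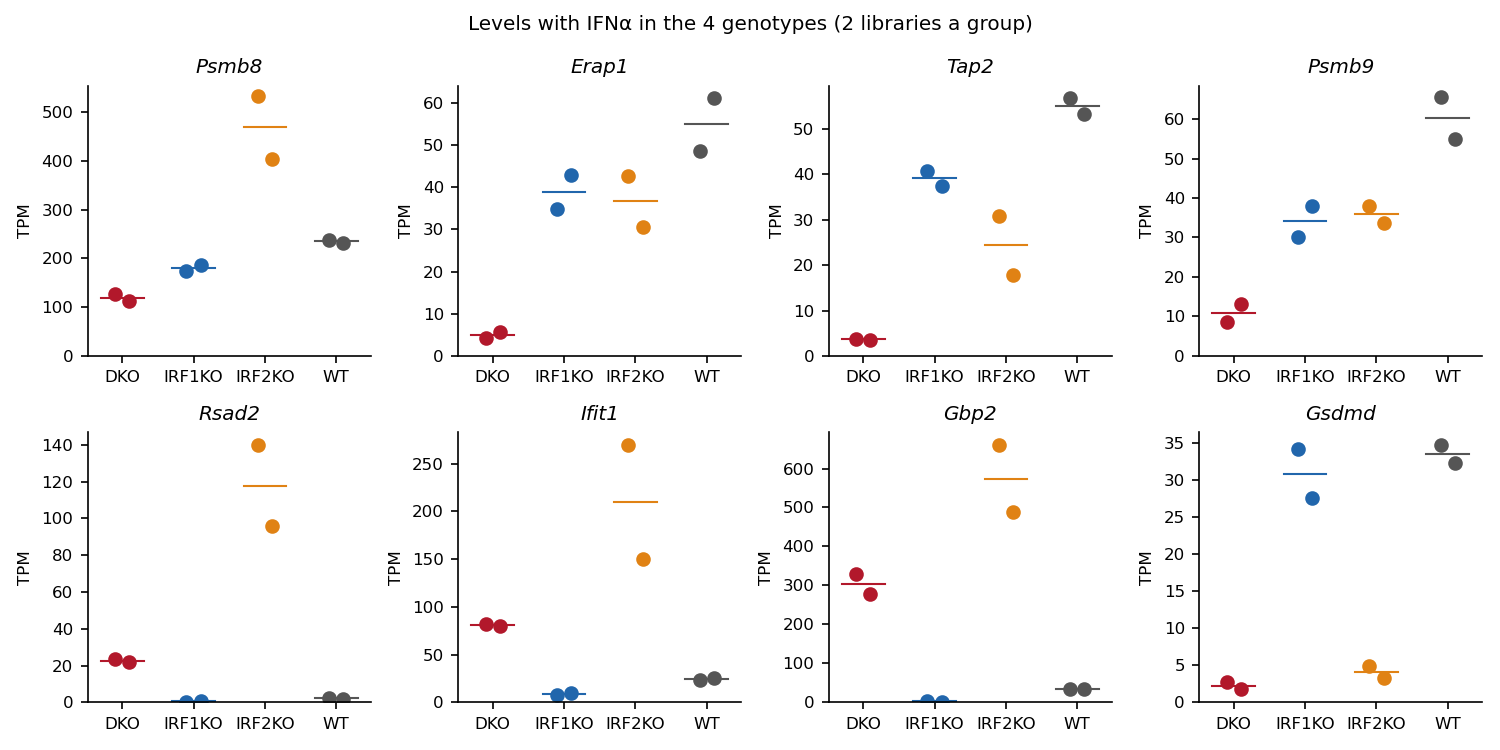
Levels of 8 genes with IFNα (y axis, TPM from 0, range differing by panel) in DKO, IRF1KO, IRF2KO and WT libraries, 2 a group, with the mean as a bar. Psmb8 is lowest in DKO and highest in IRF2KO, Erap1 is lowest in DKO, Rsad2, Ifit1 and Gbp2 are higher in DKO than in IRF1KO and in IRF2KO than in WT, and Gsdmd is low in both genotypes with IRF2 targeted.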

How the data were processed

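The authors deposited TPM for all 30 libraries, and per the submitters' processing notes bcl2fastq 2.20, Bowtie 0.12.2 and RSEM were used with the builds mm10 and GRCm38. TPM keep no read counts, so no count test or counting interval was possible. The deposited table has 41346 rows for 31427 symbols, and rows that share a symbol were summed. limma 3.58.1 in R 4.3.3 modelled log2(TPM + 1) by 12 group means over 24 replicated libraries, with a trended prior variance and 12 residual degrees of freedom (11 with the block). A gene entered if 2 or more libraries reached 1 TPM, which left 11842. Tests are two-sided, with Benjamini-Hochberg adjustment within each comparison. Titles give the replicates of all groups the same pair of codes of date form, which were taken to pair them. Same-numbered libraries deviated together at r above 0.1 in 56 of 66 pairs of groups (median 0.233, and 0.47 for DKO and IRF1KO with IFNα). The members, gene lists and named genes were chosen with earlier results of these data known. Named were the 12 called genes of largest change per direction that reached 5 TPM in their higher group, up to 4 called members per list and per test between differences, 2 uncalled members per list, and 38 genes by name. Others were named after their values were seen. Gene coordinates are from GENCODE M21 (GRCm38). The fit was tested on simulated data. Settings varied were the pseudocount (0.1 or 5), the filter (none, or 5 TPM on average), the scaling (TMM or quantile), a robust prior, the block, a 2-fold minimum, a fit of the compared groups alone, and the removal of single libraries.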

Additional observations from a re-analysis of the deposited data

Results flagged for a closer look

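The DKO against IRF1KO difference was larger with IFNα than in media, by a test of the difference itself, for Rsad2 (3.83), Ifit1 (3.06), Gm14446 (2.80), I830012O16Rik (2.77), Ifit3 (2.75), Cmpk2 (2.62), Ifit2 (2.10), Gbp5 (2.06), Mx2 (1.94), Parp10 (1.75), Trim21 (1.64) and Irgm1 (1.58), in log2(TPM + 1). It was larger with IFNα than with IFNγ for Rsad2 (3.57), Hist1h4f (2.77), Gm14446 (2.60), Ifit1 (2.60), I830012O16Rik (2.60), Cmpk2 (2.52), Ifit3 (2.25), Ifit2 (2.10) and Mx2 (1.75). The effect of the IRF2 label with IFNα was more negative in the IRF1KO than in the WT background for Erap1 (-2.17) and Psmb8 (-1.57).

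The series also holds single libraries of IRF2KO and WT cells, quantified against another transcript set, with no replicate and so no test. With IFNα for 2 h, all 12 genes whose difference was larger with IFNα than in media were higher in the single IRF2KO library than in the single WT library. Any difference in TPM counts as higher here. The share of all genes that were higher in that library was not counted, so the count cannot be weighed. Rsad2 stood at 146.77 against 6.59 TPM, Ifit1 at 650.23 against 74.33 TPM, Ifit3 at 362.2 against 58.89 TPM, Ifit2 at 320.68 against 63.75 TPM, Gm14446 at 148.69 against 25.07 TPM and Cmpk2 at 74.98 against 5.21 TPM. I830012O16Rik stood at 65.51 against 7.93 TPM, Gbp5 at 51.04 against 1.89 TPM, Mx2 at 32.49 against 8.99 TPM, Parp10 at 51.46 against 18.4 TPM, Irgm1 at 503.89 against 247.88 TPM and Trim21 at 7.26 against 2.38 TPM. After 2 h with LPS, Rsad2 had 17.37 TPM in the IRF2KO library and 0.51 TPM in the WT library, and Ifit1 had 42.74 and 2.97 TPM. Trim21 stood the other way with LPS, at 0.54 TPM in IRF2KO and 0.78 TPM in WT. Parp10 was close between them, at 7.62 and 7.15 TPM.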

How the results depend on the processing

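Among the 38 named called genes no direction reversed under the alternatives run. The groups did not overlap in any called gene, so only TMM or quantile scaling could have reversed a direction. The 100 genes called with IFNα became 63 at a mean of at least 5 TPM, 210 with the replicate block and 18 in the compared groups alone, and ranged from 52 to 82 when single libraries were left out. The 12 genes of IFNα against media became 5 at a pseudocount of 0.1 and 5 in the compared groups alone (9 to 13 without single libraries), and the 9 of IFNα against IFNγ became 0 and 4 (5 to 12). The 2 genes of the background test became 1 and 7 at pseudocounts of 0.1 and 5, 4 with no filter, 1 with the block and 0 in the compared groups alone (1 to 3 without single libraries). The cause of these moves was not tested, beyond the smaller number of libraries or genes in some fits. Of 38 named called genes, 22 lost their call in the compared groups alone and between 7 and 10 when a library was left out, while the block lost 0 and added Bst2, Casp1, Cdkn1a, Cxcl10, Lgals9 and Lyz2. Leaving out libraries of the media, IFNγ, IRF2KO and WT groups was an alternative chosen after seeing the data. Depth is unknown, and the 2 libraries a group limit what could be called.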

Other observations

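Other genes outside the lists were called and are given as values, chosen after they were seen. Flt1, the receptor gene of VEGF and placental growth factor, had 36.2 and 46.2 TPM in DKO with IFNα, against 9.40 and 12.2 TPM in IRF1KO (1.84 ± 0.20), and was also higher in media (1.65 ± 0.20) and with IFNγ (1.77 ± 0.20). Pgf, the gene of placental growth factor, had 8.62 and 5.48 TPM in DKO, against 1.75 and 2.15 TPM in IRF1KO (1.42 ± 0.26). Tnfsf13b, the gene of the B cell survival factor BAFF, had 18.3 and 13.1 TPM in DKO, against 5.30 and 4.74 TPM in IRF1KO (1.46 ± 0.32). Cst7, the cystatin F gene, had 77.6 and 66.3 TPM in DKO, against 30.9 and 27.0 TPM in IRF1KO (1.28 ± 0.23).

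Among the lower genes, Mov10, an RNA helicase gene, had 6.77 and 7.77 TPM in DKO, against 17.4 and 22.4 TPM in IRF1KO (-1.33 ± 0.19). Sp110, a nuclear body gene, had 4.52 and 6.15 TPM in DKO, against 14.6 and 16.7 TPM in IRF1KO (-1.40 ± 0.16). Both were also lower in DKO in media and with IFNγ. Arg2, the mitochondrial arginase gene, had 6.78 and 6.99 TPM in DKO, against 16.4 and 18.2 TPM in IRF1KO (-1.21 ± 0.21). Il17rc, a receptor subunit gene for IL-17, had 0.18 and 0.05 TPM in DKO, against 4.73 and 3.71 TPM in IRF1KO (-2.22 ± 0.22).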
